A study of Homo sapiens with 4 samples.

Results

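The clustered protocadherin genes were described in FAIRE-seq data of the cell line H295R/TR SF-1. It derives from H295R, a line of human adrenocortical carcinoma, and doxycycline induces in it extra SF-1 (NR5A1), the nuclear receptor that directs steroidogenic gene expression. Members were the protein-coding genes of chromosome 5 whose GENCODE symbol begins with PCDHA, PCDHB or PCDHG followed by a number, or by a letter and a number, 53 of the 20163 protein-coding genes of the annotation. They comprised 13 α genes, 2 αC genes (PCDHAC1 and PCDHAC2), 16 β genes, 12 γA genes, 7 γB genes and 3 γC genes, all on the plus strand between chr5:140165721-140892544 of GRCh37 (hg19), a stretch of 727 kb. FAIRE (formaldehyde-assisted isolation of regulatory elements) recovers DNA that is not held in nucleosomes, and the data were 1 list of FAIRE sites for each of 2 conditions. Basal cells had their own level of SF-1, and SF-1 overexpressing cells, of the same line, had been given doxycycline for 3 days. The basal list held 34423 sites and the overexpression list 31219, of which 15 and 12 lay within 10 kb of a clustered protocadherin gene, and 26 and 22 between 100 kb before the first and 100 kb after the last of these genes. Each list came from 1 library of 1 cell line, so no difference between the conditions has a replicate check and no test was made. The lists give no read counts, so depth is unknown, and a promoter without a site is one at which none was called, not one shown to be closed. Intervals below are exact (Clopper-Pearson) 95% intervals and cover counting error only.

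Clustered protocadherins are cadherin-like adhesion proteins of the cell surface, best known in neurons, where combinations of them give single cells an identity. In the α and γ arrays each variable first exon has a promoter of its own and is spliced to constant exons shared by the whole array, so that choice of promoter is choice of isoform, whereas each β gene is a single coding exon. The architectural protein CTCF, acting with cohesin, binds many of these promoters, α first exons and distant enhancers, and the orientation of its motif bears on which promoter meets which enhancer. The repressor NRSF/REST acts on many neuronal genes in cells that are not neurons.

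The sequences that carry the results are shown first. Many promoters of the cluster hold a short element near the start of transcription, and the words of 9 letters most often shared by the 53 promoters, from 500 bp before to 100 bp after the 5′ end and read on the gene strand, were GGTGGCGCT in 14 β genes and GATGTCGCT in 10 α genes. Another word, GCGCCGCTG, was found in 6 γA and 4 γB genes. The words were picked by their counts in these promoters. The same windows of all protein-coding genes held them in 0.575%, 0.139% and 1.12% of cases. A word rich in A and T, TAAATAAAA, was also held by 10 cluster promoters, against 1.22% of all, but was spread over 2 α, 3 β, 3 γA and 2 γB genes, and it is not shown. The lines give 30 bases of the plus strand of GRCh37 around the word, in capitals, at the 9 promoters that carried a FAIRE site in either list, and then at 3 that carried none for comparison. A word with 1 mismatch is given where no exact one was present.
PCDHA1, chr5:140165672-140165701: ttggccacatGATGTCGCTgtacaccacaa
PCDHA4, chr5:140186565-140186594: ggagccacatGATGTCGCTctttaccacaa
PCDHB6, chr5:140529573-140529602: ttgaacgcgtGGTGGCGGTacaagctaaga
PCDHB7, chr5:140552148-140552177: caaaacgcaaGGTGGCGCTgctggctaaaa
PCDHB10, chr5:140571873-140571902: gaggccacacGGTGGCGCTgcaggctaaag
PCDHB11, chr5:140579104-140579133: ggagacacttGGTGGCGCTgcaggataaca
PCDHB14, chr5:140602836-140602865: ggagacacatGGTGGCGCTacaggataaga
PCDHGA1, chr5:140709972-140710001: aggactgtggGCGCCGCTGttcactaatct
PCDHGC3, chr5:140855449-140855478: gggactctgtGTGCCGCTGtcggccaatga
PCDHA8, no promoter site, chr5:140220716-140220745: gaagccacatGATGTCGCTgtctaccaaga
PCDHB12, no promoter site, chr5:140588216-140588245: ggagacgcgtGGTGGCGCTgcaggataata
PCDHB1, no promoter site, chr5:140430923-140430952: gctagcctttGGTGGTGCTgcagttagagg
Counted from 1 at the 5′ end of the word, PCDHB6 differed from the β word by C8G, PCDHB1 by C6T, and PCDHGC3 from the γ word by C2T. With up to 1 mismatch, the β word was present in 16 of 16 β promoters, against 12% of all coding promoters. Of the 53 promoters 34 held 1 of the 3 words exactly, 7 of which carried a basal site, and 46 held 1 with up to 1 mismatch. The 7 without were those of PCDHA9, PCDHA11, PCDHAC2, PCDHGA3, PCDHGA5, PCDHGA8 and PCDHGC5. None of these carried a site, which was also so for 44 of all 53 promoters. At PCDHA9 and PCDHA11 the annotated 5′ end lies further before the first coding base than at the other α genes. The window searched there therefore stopped short of the place that the α word takes in the others.

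The second set shows the CTCF motif in the coding part of α first exons. CTCF was searched as a 12-letter consensus on both strands with up to 1 mismatch. The best-matching 12 letters are in capitals in 30 bases of the plus strand, the strand of the genes.
PCDHA4, chr5:140187220-140187249: tctcggtttCCACTAGAGGGCgcctcggat
PCDHA8, chr5:140221354-140221383: tctcggtttCCGCTAGAGGGCgcgtccgat
PCDHA7, chr5:140214416-140214445: tctcggtttCCACTAGAGGGCgcgtccgat
PCDHA13, chr5:140262301-140262330: actcgatttCCACTAGATGGCgcatccgat
PCDHA2, 2 mismatches, chr5:140174997-140175026: tctcggtttCCTCTAGAGGGAgcatctgat
PCDHA1, 4 mismatches, chr5:140166323-140166352: tcgcgttttCCGATAGAAGGAgctgctgat
PCDHA4 and PCDHA8 had a FAIRE site over this stretch and the other 4 did not.

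The last set shows the CTCF matches inside FAIRE sites outside the genes of the cluster. The 4 exact matches are on the minus strand, which is the strand printed, and the second of them overlaps a match with 1 mismatch on the plus strand. The first pair of lines lies between the α genes and PCDHB1, and the second pair in introns of DIAPH1, the gene that follows the γ array and is read in the opposite direction.
α to β interval, first, chr5:140419939-140419968: gatctttaaCCAGCAGAGGGCgagtcgact
α to β interval, second, chr5:140420948-140420977: cctcatctgCCACCAGGTGGCaggtggatc
DIAPH1 intron, first, chr5:140904452-140904481: gatgctcagCCAGCAGGTGGCgctgggagc
DIAPH1 intron, second, chr5:140943953-140943982: tgctttcagCCACCAGATGGCacatggatc

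To ask which of the alternative promoters were accessible at each SF-1 dosage, sites within 500 bp of the annotated 5′ end of each gene were counted. In the basal list 9 of the 53 genes carried such a site, PCDHA1, PCDHA4, PCDHB6, PCDHB7, PCDHB10, PCDHB11, PCDHB14, PCDHGA1 and PCDHGC3, a share of 17% (8.07 to 29.8%). In the overexpression list 5 did, PCDHA1, PCDHA4, PCDHB11, PCDHB14 and PCDHGC3, a share of 9.43% (3.13 to 20.7%). Of all protein-coding genes 36.5% carried a basal site and 38.4% an overexpression site in the same window, so the share of the cluster lay below that of coding genes in both lists. The promoters of PCDHB6, PCDHB7, PCDHB10 and PCDHGA1 had a site in the basal list only, and no promoter of the cluster had one in the overexpression list only. Among all coding genes these classes took 3.91% and 5.81%. The remaining 44 promoters carried no site in either list.

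**Figure D1:**
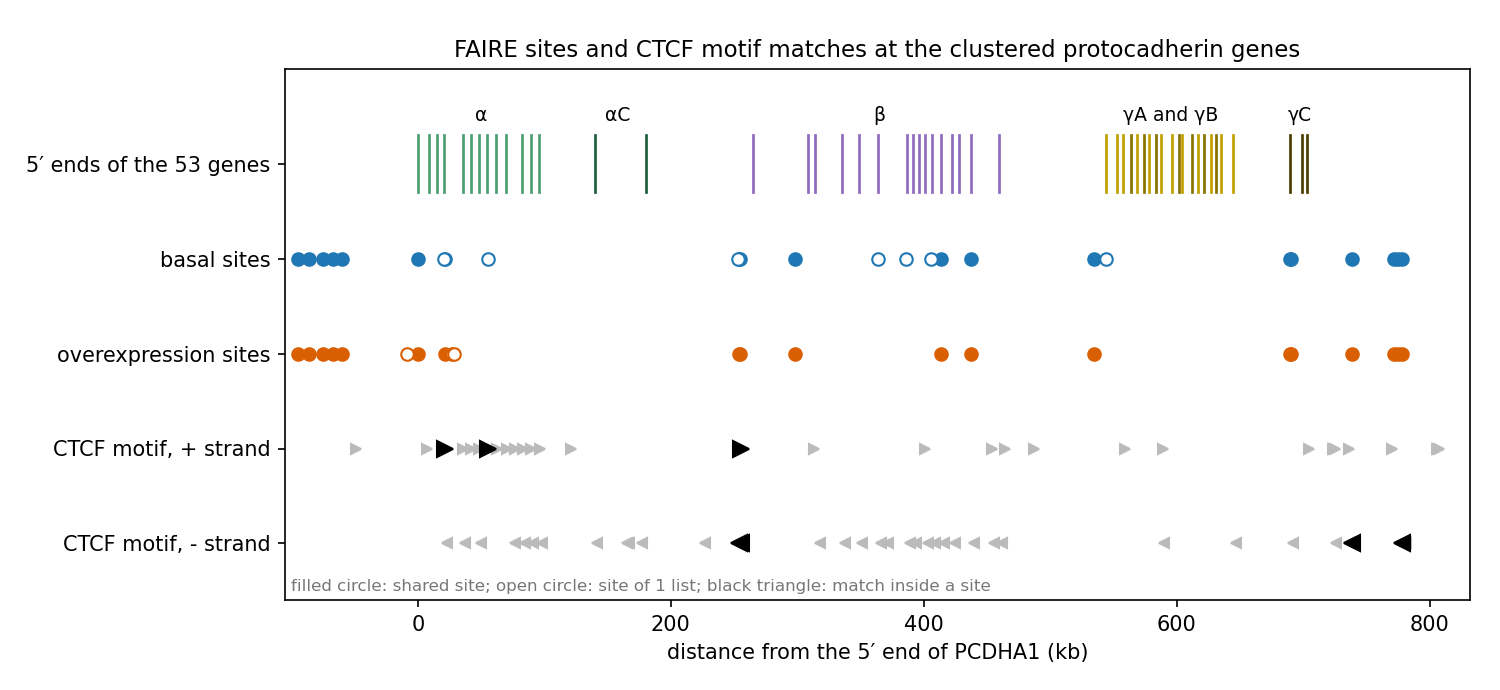
The horizontal axis is the distance in kb from the 5′ end of PCDHA1, and the rows give the 5′ ends of the 53 genes, the basal sites, the overexpression sites and the CTCF motif matches on either strand. Filled circles are shared sites, open circles are sites of 1 list, and black triangles are matches inside a site. Sites lie at single promoters between long stretches that hold none, among them 18 promoters between PCDHGA1 and PCDHGC3.

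Promoters of the cluster are poorer in G and C than those of most genes. Coding genes with 40 to 50% GC carried a site less often than all coding genes, as given below. Whether this bears on the share of the cluster was not tested. In the 1 kb around the 5′ end the median GC content was 44.4% (28.7 to 64.3%) over the 53 genes, against 59.1% over all coding genes. The observed to expected CpG ratio differed less, with medians of 0.652 and 0.686. A comparison chosen after these values were seen took the 45 cluster genes and the 3102 coding genes with 40 to 50% GC. Here 8 cluster genes carried a basal site (17.8%, 8 to 32.1%) and 4 an overexpression site (8.89%, 2.48 to 21.2%), 4 of them in both lists. All coding genes of that band carried one in 12.5% and 12.7% of cases, so the cluster lay above them in the basal list and below them in the overexpression list, and both values were inside its intervals. Sites in 1 list only were found at 4 cluster genes of this band for the basal list and 0 for the overexpression list, against 2.77% and 2.93% of all coding genes in it. Within the cluster the 9 promoters with a site in either list had a median GC content of 42.4% (40.6 to 53.3%) and the 44 others 44.9% (28.7 to 64.3%).

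Reads from near-identical exons cannot be placed with certainty, which limits what a missing site means at some members. The median share of the 31-letter words in the 1 kb around a cluster promoter that occur once in the genome was 98.2%, but it fell to 46.2% at PCDHB13, 49.4% at PCDHB8, 58.2% at PCDHGB5 and 58.8% at PCDHGB4. None of these 4 genes carried a site in either list. How the authors treated reads with several matches in the FAIRE libraries is not given in the sources used here.

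**Figure D2:**
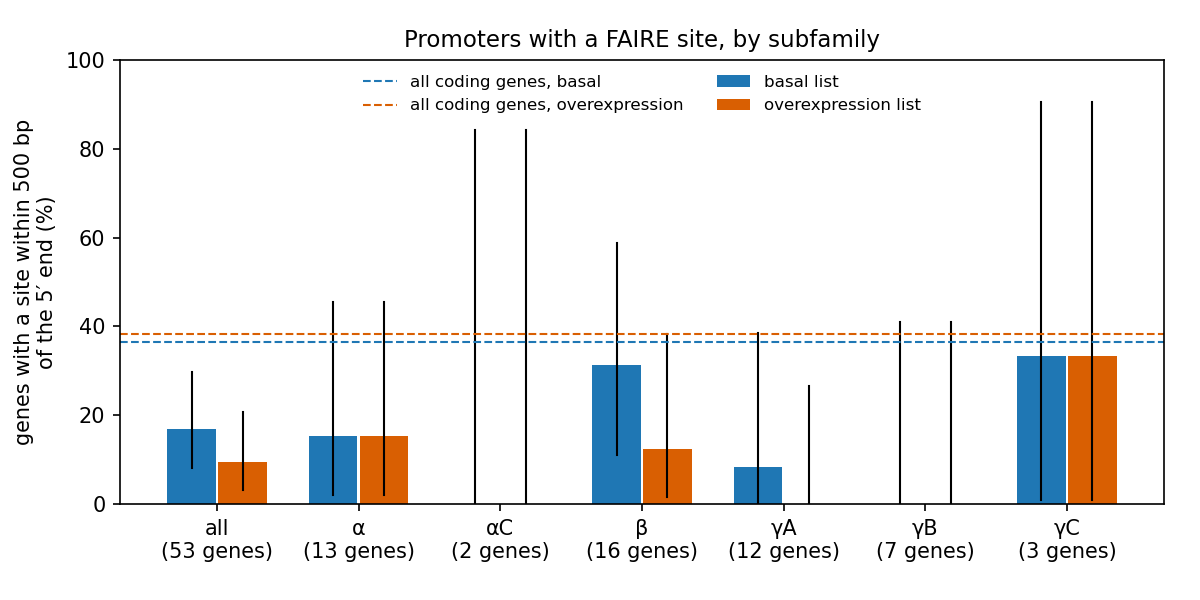
Bars give the percentage of the genes of each subfamily with a FAIRE site within 500 bp of the 5′ end in the basal and the overexpression list, vertical lines are exact 95% intervals, and dashed lines are the values of all coding genes, 36.5% and 38.4%. The β genes had the largest number of promoters with a basal site, 5 of 16, and the intervals of the subfamilies overlap.

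Of the β genes, which code for protocadherins from a single exon, 5 of 16 carried a basal site (31.2%, 11 to 58.7%) and 2 an overexpression site (12.5%, 1.55 to 38.3%). Each of the 5 basal sites ended within 34 bp after the 5′ end and reached back over the β word. At PCDHB6 the site lay from 187 bp before to 11 bp after the 5′ end (chr5:140529451-140529649) and at PCDHB7 from 174 bp before to 24 bp after it (chr5:140552051-140552249). At PCDHB10 it lay from 225 bp before to 23 bp after it (chr5:140571701-140571949). These 3 sites were peaks 20293, 28172 and 16782 of the basal list, that is 59%, 81.8% and 48.8% of the way down it. What set the order of the lists is not stated, although the first sites were on the whole wider than the last, so a place is given for each list and not compared between the conditions. None of them overlapped a site of the overexpression list, whose nearest sites were 49313, 26726 and 7025 bp from the 5′ ends of the genes.

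PCDHB11 and PCDHB14 carried a site in both lists. The PCDHB11 site was 199 bp wide in the basal list (chr5:140579001-140579199, 46.8% down the list) and 249 bp wide in the overexpression list (chr5:140578951-140579199, 13.9% down). The PCDHB14 site was 199 bp wide and 30.9% down the basal list (chr5:140602751-140602949), but 149 bp wide and 56.3% down the overexpression list (chr5:140602751-140602899), where it stopped 16 bp before the 5′ end. A coding gene known only by its identifier, ENSG00000279983, starts at chr5:140602944, so this site is not assigned to PCDHB14 alone. The part of the basal PCDHB11 site that precedes the gene is given as an example of such a site, with the β word in capitals.
PCDHB11 promoter site, chr5:140579001-140579182, plus strand: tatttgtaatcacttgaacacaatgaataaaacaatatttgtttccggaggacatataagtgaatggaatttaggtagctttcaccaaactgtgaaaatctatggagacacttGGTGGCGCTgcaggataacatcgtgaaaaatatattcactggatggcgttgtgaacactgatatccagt
The 11 β genes with no promoter site held the β word too, exactly at all but PCDHB1, where it had 1 mismatch. The word was thus not particular to the promoters with a site. PCDHB1, which lies apart from the other β genes, had its nearest site 9860 bp away in both lists.

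Among the α genes PCDHA1 and PCDHA4 were the members with a promoter site. PCDHA1 carried a site of 149 bp in either list, from 120 bp before to 28 bp after the 5′ end in the basal list (chr5:140165601-140165749) and from 70 bp before to 78 bp after it in the overexpression list (chr5:140165651-140165799). Both stood late, at 87.4% and 89.4% of the way down their lists. PCDHA4 carried a basal site of 299 bp from 171 bp before to 127 bp after the 5′ end (chr5:140186451-140186749, 33.4% down the list) that no overexpression site overlapped. In the overexpression list PCDHA4 was counted only because the site in its exon began 479 bp after the 5′ end. With the window narrowed to 250 bp either side, the cluster therefore had 9 genes with a basal site and 4 with an overexpression site, 5 of the basal sites being in that list alone. All coding genes then stood at 34.1% and 35.9%, with 3.65% in the basal list only and 5.46% in the overexpression list only.

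Neither αC gene carried a promoter site, although their promoters were the richest in GC of the cluster, with 63% at PCDHAC1 and 64.3% at PCDHAC2. Their nearest basal sites were 84385 and 73096 bp away. With 2 genes the interval of this share reaches 84.2%.

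Of the γ genes PCDHGA1 and PCDHGC3 carried a promoter site. The PCDHGA1 site, from 180 bp before to 68 bp after the 5′ end (chr5:140709901-140710149), was in the basal list only, 49.7% of the way down. PCDHGC3, 1 of the 3 C-type γ isoforms, had the widest promoter site of the cluster, 399 bp in both lists. It ran from 313 bp before to 85 bp after the 5′ end in the basal list (chr5:140855201-140855599) and from 263 bp before to 135 bp after it in the overexpression list (chr5:140855251-140855649). It was also the highest placed of the promoter sites of the basal list, 18.5% down, with 14.9% in the overexpression list, where PCDHB11 stood higher. A second shared site lay in the coding exon of PCDHGC3 (chr5:140856001-140856249 and chr5:140856101-140856299), at 42.8% of the basal and 85.3% of the overexpression list. PCDHGC4 and PCDHGC5 carried none, with nearest basal sites 8315 and 12399 bp away. The other 11 γA and all 7 γB promoters lay in 1 gap of 145 kb without a site in either list.

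**Figure D3:**
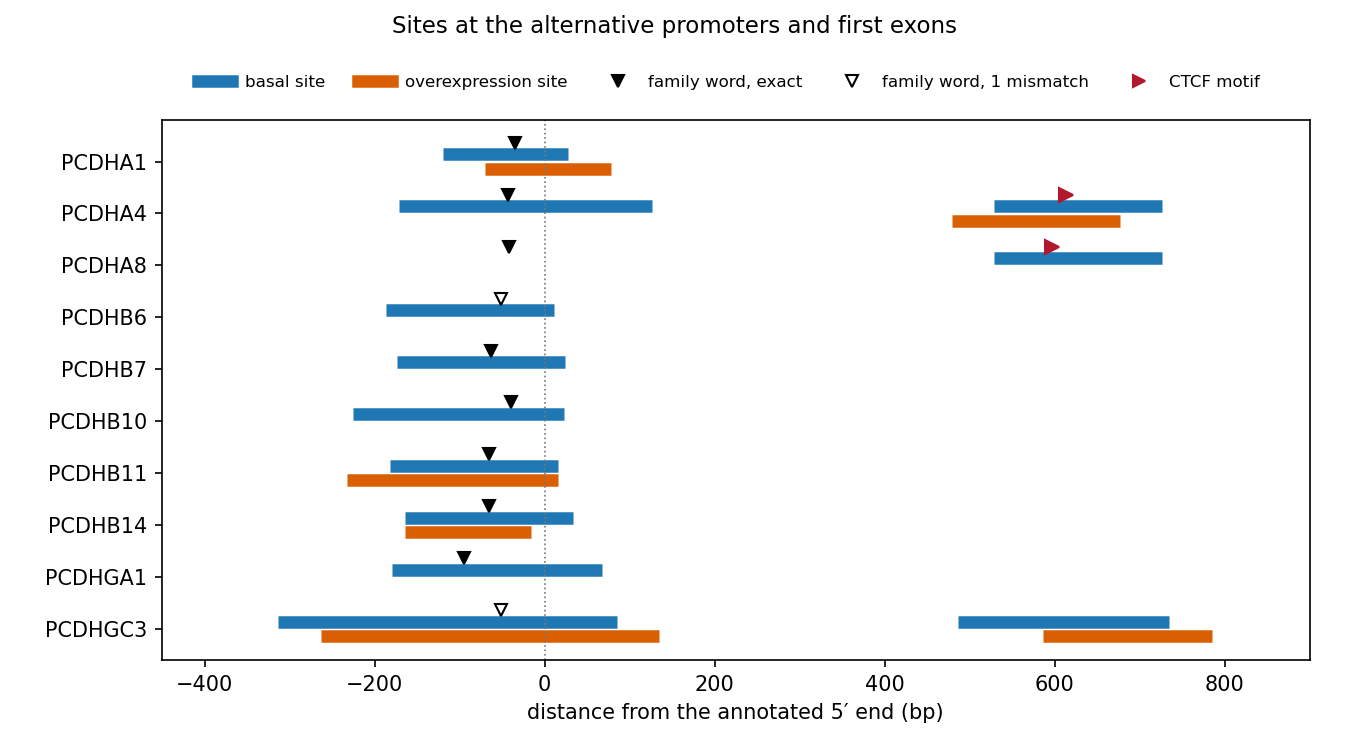
Bars show the basal sites and the overexpression sites of 10 genes by distance in bp from the annotated 5′ end, with the 9-letter family word as a triangle, open where it has 1 mismatch, and the CTCF motif as a red triangle. Promoter sites cover or adjoin the 5′ end and the family word, whereas the exon sites of PCDHA4 and PCDHA8 cover the CTCF motif and the second PCDHGC3 site covers none.

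The sites in the first exons of PCDHA4 and PCDHA8 are next described, since the α exons carry a CTCF motif. A match was found in the coding exon of 10 of the 13 α genes, always on the gene strand and between 453 and 456 bp from the first coding base, and 4 of the 10 were exact. PCDHA1, PCDHA2 and PCDHA3 held the same stretch with 4, 2 and 2 mismatches. Of all coding genes 3.37% have a match 400 to 700 bp after the 5′ end, and 1.53% have one on the gene strand, whereas 8 of the 13 α genes do. The 13 genes hold similar versions of the same stretch, so these 8 are not independent cases. FAIRE sites covered the motif at 2 of the 10. At PCDHA4 this was a shared site of 199 bp (chr5:140187151-140187349, 52.9% down the basal list, and chr5:140187101-140187299, 59.2% down the overexpression list). At PCDHA8 it was a basal-only site of the same width (chr5:140221301-140221499, 70.4% down). Relative to the 5′ end both basal sites lay from 529 to 727 bp, and the sequences are given with the motif in capitals.
PCDHA4 exon site, chr5:140187151-140187349, plus strand: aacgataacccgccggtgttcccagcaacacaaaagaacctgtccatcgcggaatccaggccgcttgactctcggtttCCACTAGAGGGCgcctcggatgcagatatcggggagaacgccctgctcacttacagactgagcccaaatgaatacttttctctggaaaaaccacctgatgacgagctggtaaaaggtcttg
PCDHA8 exon site, chr5:140221301-140221499, plus strand: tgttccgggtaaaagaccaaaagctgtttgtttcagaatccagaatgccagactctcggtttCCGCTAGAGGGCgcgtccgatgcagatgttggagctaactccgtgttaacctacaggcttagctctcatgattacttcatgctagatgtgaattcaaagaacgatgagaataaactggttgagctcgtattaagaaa
Every 31-letter word of the PCDHA8 site occurs once in the genome. At the PCDHA4 exon this held for 79.3% of the words of the basal site and 64.5% of those of the overexpression site, the rest being repeated elsewhere in the stretch of the cluster. What this repetition did to the call at PCDHA4 was not tested.

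Further matches recurred at fixed places in the exons without a site. In 11 of the 16 β genes a CTCF match lay between 2194 and 2206 bp from the first coding base, and in 6 α genes between 1759 and 1762 bp, in all cases on the strand opposite to the gene. None of these was inside a FAIRE site. Around the 5′ end itself a match within 500 bp was found at PCDHA7 and PCDHB9 alone, and neither carried a promoter site. That is 2 of 53 genes against 13.3% of all coding genes. This difference depended on the search. With exact matches the count was 1 of 53 against 1.04% of all coding genes. Within 1000 bp, with up to 1 mismatch, it was 10 of 53 against 21.1%. The PCDHA7 match was the exon match described above, since the annotated 5′ end of this gene is its first coding base. The PCDHB9 match overlapped the β word, whose first letters, GGTGGC, were the last of the match. The β word thus begins with letters that the CTCF consensus allows at its end.

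**Figure D4:**
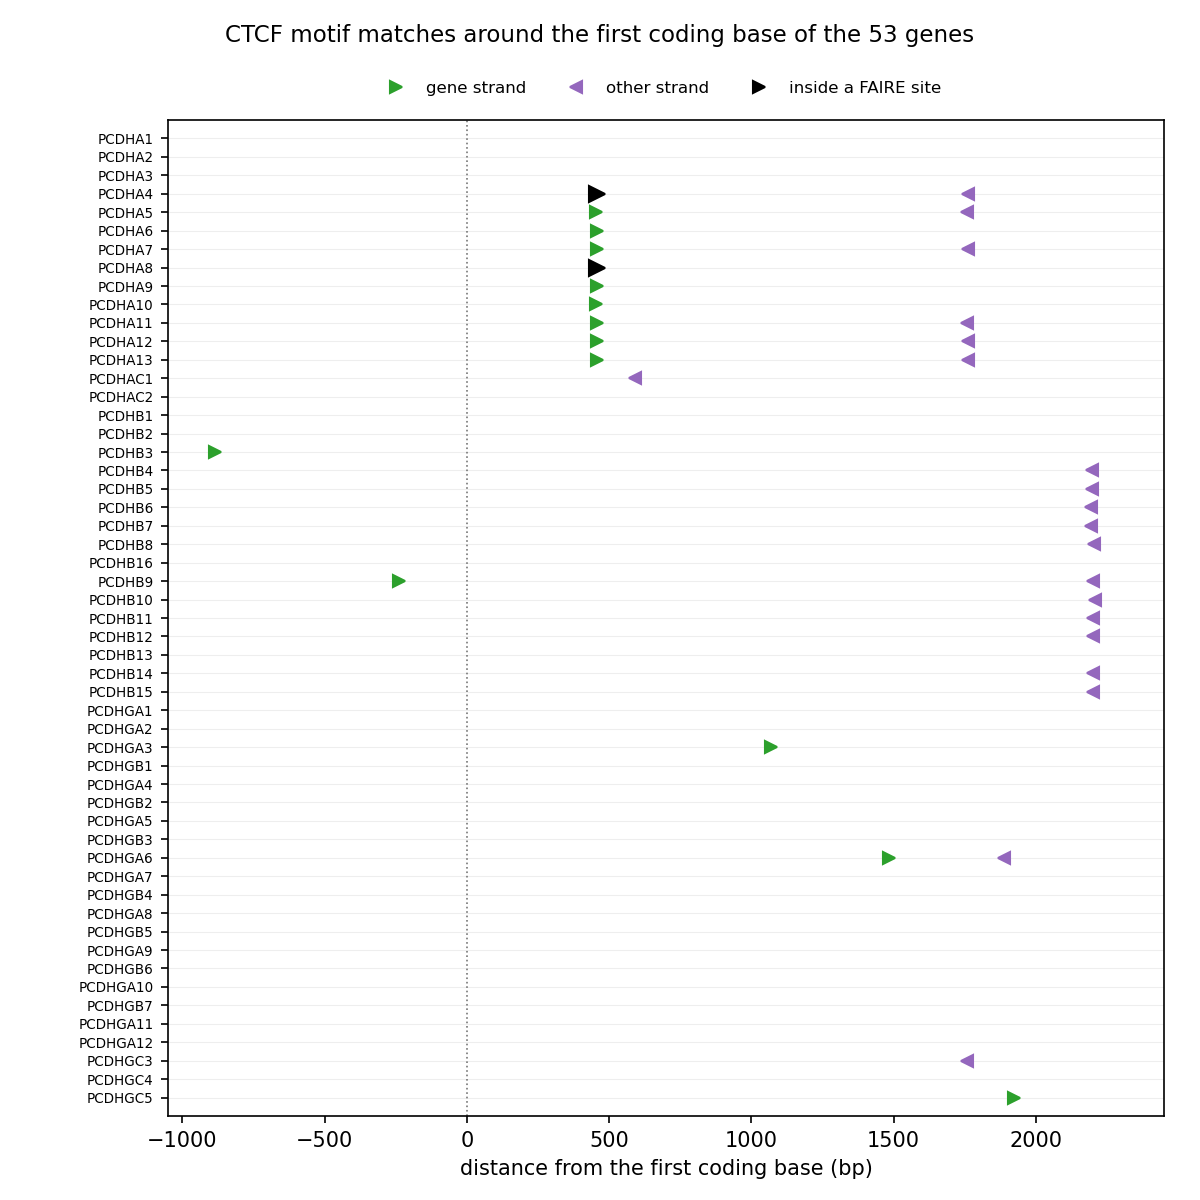
Triangles mark CTCF motif matches with up to 1 mismatch by distance in bp from the first coding base of each of the 53 genes, on the gene strand (green) or the other strand (purple), and in black where a FAIRE site of either list covers the match. The matches line up at 453 to 456 bp in 10 α genes and at 2194 to 2206 bp in 11 β genes, and those of PCDHA4 and PCDHA8 are the covered ones.

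Over the whole stretch to 100 kb beyond the genes there were 65 CTCF matches, 29 on the plus and 36 on the minus strand. The density was 7.01 per 100 kb against 5.49 per 100 kb of the genome. It counts the matches that recur at fixed places in the α and β exons once for each gene, so similar exons add to it. Of the 65 matches, 7 were inside a basal and 6 inside an overexpression site. Among the 11 exact matches 5 were inside a site, and these were covered in both lists. Of the exact matches in the genome 16.4% were inside a basal and 13.5% inside an overexpression site. Within 10 kb of a cluster gene 54 matches were found, of which basal sites covered 2 (3.7%) and overexpression sites 1 (1.85%), against 4.07% and 3.42% of the matches in the genome. The 54 leave out 2 overlapping matches, covered in both lists, that start just over 10 kb before PCDHB1. Their site, 9860 bp before that gene, does count as within 10 kb. Both shares would be higher with these matches, so a share below that of the genome is not established. The 2 covered matches of the α exons were on the plus strand. Of the 5 covered matches beyond them, 4, all exact, were on the minus strand, and 1, with a mismatch, was on the plus strand and overlapped an exact one.

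The earliest placed site within 10 kb of the cluster genes was not at a promoter but between the end of the α genes and PCDHB1. A site of 449 bp (chr5:140420651-140421099) was peak 1908 of the basal list, 5.54% of the way down, and its counterpart in the overexpression list was 699 bp wide (chr5:140420401-140421099) and peak 3238, 10.4% down. It lay 9860 bp before PCDHB1, held the exact CTCF match shown above with an overlapping match of 1 mismatch on the other strand, and was the one site of the stretch, in either list, with a match to the NRSF/REST motif. That motif was searched as a 21-letter consensus with up to 4 mismatches, which 0.401% of all basal and 0.484% of all overexpression sites held. The sequence between the ends of these matches and a little beyond is given with the NRSF/REST match and then the CTCF matches in capitals. The NRSF/REST match and the exact CTCF match read on the minus strand.
α to β site, chr5:140420789-140421028, plus strand: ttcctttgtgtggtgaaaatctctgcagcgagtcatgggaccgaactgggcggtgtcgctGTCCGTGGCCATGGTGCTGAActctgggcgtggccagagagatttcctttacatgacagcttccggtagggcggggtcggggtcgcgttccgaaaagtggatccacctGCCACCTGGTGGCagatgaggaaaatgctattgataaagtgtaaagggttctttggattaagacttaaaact
A second shared site stood just before it (chr5:140419751-140419999, 249 bp, 56% down the basal list, and chr5:140419701-140420049, 349 bp, 36% down the overexpression list) and held the other exact CTCF match of this interval. Another, chr5:140419151-140419399, was in the basal list only. These sites end a gap of 198 kb in which neither list had a site and which holds 7 cluster promoters, from PCDHA9 to PCDHAC2.

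NRSF/REST matches were also frequent in γA exons, where 10 of the 12 genes held one, each with 4 mismatches, between 1936 and 2029 bp from the first coding base. None of the 10 was inside a site of either list. The stretch held 12 matches in all, or 1.29 per 100 kb against 0.472 per 100 kb of the genome, and 1 of them was inside a site. Since 10 of the 12 were near-identical copies of the same stretch of the γA exons, this density counts that stretch many times.

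To see whether sites of the cluster carried the recognition sequence of the factor that was overexpressed, the words CAAGGTCA and CAAGGCCA were searched on both strands. They occurred 120 times in the stretch, 12.9 per 100 kb against 11.2 per 100 kb of the genome. None of the 26 basal and none of the 22 overexpression sites held a match. Taken as 3 counts of the total, the limit that a count of 0 allows is 11.5% and 13.6%, and the upper ends of the exact intervals are 13.2% and 15.4%. Of all basal sites 12.7% and of all overexpression sites 12.6% held a match, so a share like that of the whole list was not excluded by the exact interval. No match says only that these letters are not in these sites.

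The sites of the cluster were then compared between the conditions as a whole. Of the 15 basal sites within 10 kb of a gene 9 were shared, that is overlapped an overexpression site by at least 1 bp (60%, 32.3 to 83.7%), and 6 were basal-only. Of the 12 overexpression sites 9 were shared (75%, 42.8 to 94.5%) and 3 were overexpression-only. In the whole lists 45.8% of the basal and 40.3% of the overexpression sites had no overlap with the other list, and the shared remainders of 54.2% and 59.7% were inside the intervals of the cluster. The ratio of overexpression to basal sites was 0.8 near the cluster genes (0.342 to 1.83) and 0.907 in the genome (0.893 to 0.921). The difference in site number at the cluster is therefore within counting error. All 6 basal-only sites were at a promoter or first exon. They were those of PCDHB6, PCDHB7, PCDHB10, PCDHGA1, the 5′ end of PCDHA4 and the PCDHA8 exon. Such places were not particular to this class, since shared sites lay at the promoters of PCDHA1, PCDHB11, PCDHB14 and PCDHGC3 and in the exons of PCDHA4 and PCDHGC3. Among all coding genes 3.91% had a promoter site in the basal list only and 5.81% in the overexpression list only. None of the 3 overexpression-only sites was within 500 bp of a 5′ end. The first lay 8122 bp before PCDHA1 (chr5:140157401-140157599, 78.4% down the list). The others were 99 bp and 149 bp wide, chr5:140192951-140193049 and chr5:140194351-140194499, between PCDHA4 and PCDHA5 in the untranslated end of a PCDHA4 transcript, and both stood 98.9% down the list.

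By array, the β genes held 6 basal and 3 overexpression sites, or 3.03 and 1.52 per 100 kb. The α genes held 4 and 4, or 1.77 per 100 kb in both lists. The γ genes held 3 and 2, or 1.64 and 1.1 per 100 kb, and the genome 1.2 and 1.09 per 100 kb. By these counts the α and β arrays stood above the genome in both lists, and the γ array near it in the overexpression list. The densities of the arrays rest on 2 to 6 sites each and have no interval, so a difference from the genome is not established. Of the 4 α sites of the overexpression list, 2 stood 98.9% down it.

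**Figure D5:**
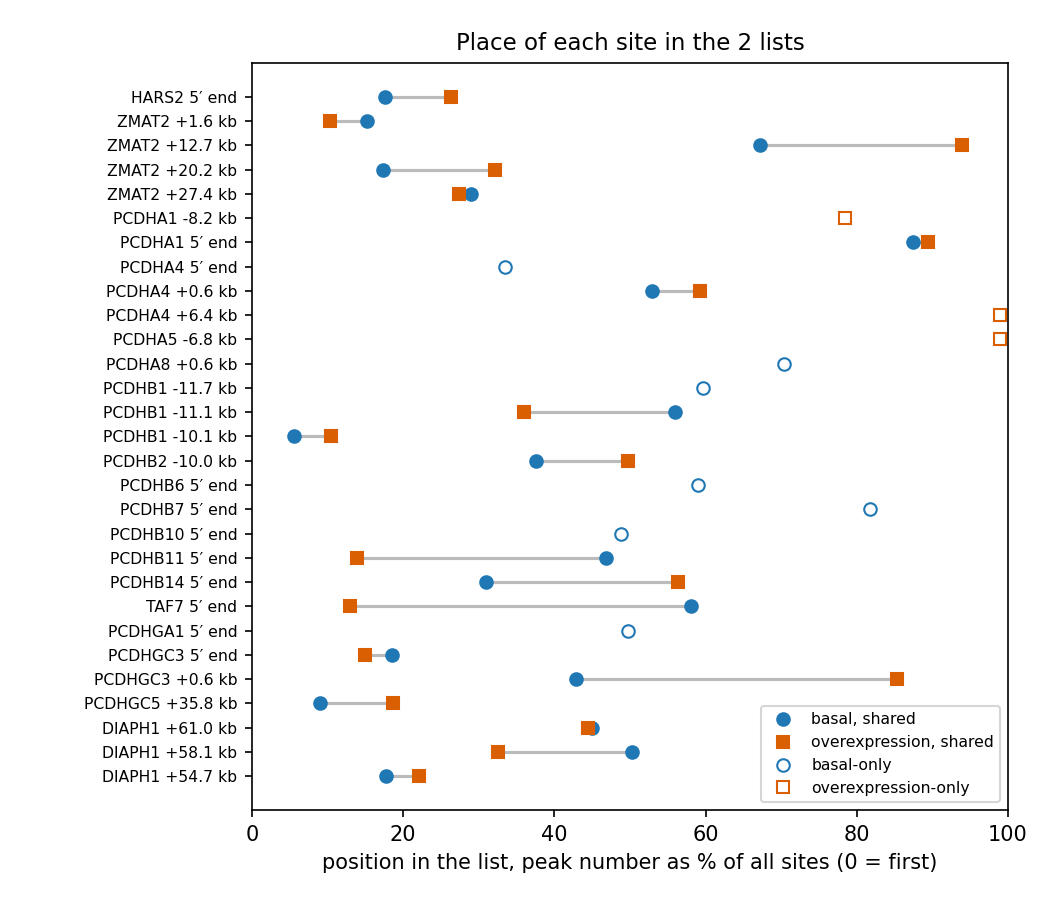
Each row is a site of the stretch, named by the nearest coding gene and the distance of its centre from the 5′ end, and the horizontal axis is its peak number as a percentage of the list, where 0 is the first. Circles are the basal list, squares the overexpression list, open symbols the sites of 1 list. The site centred 10084 bp before PCDHB1 stands earliest in the basal list at 5.54%, and the overexpression-only sites stand at 78.4% and 98.9%.

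Sites at the start of neighbouring genes were shared. TAF7, a subunit of the general transcription factor TFIID that lies between the β and the γ arrays, had a site at its 5′ end in both lists (chr5:140700351-140700499, 58.1% down the basal list, and chr5:140700301-140700549, 13% down the overexpression list). Of the 7 other coding genes that start in the stretch 4 had a promoter site in both lists (HARS1, HARS2, TAF7 and ENSG00000279983) and 3 had none (ZMAT2, SLC25A2 and AC005609.1). HARS1 and HARS2 were counted by the same site, and the site of ENSG00000279983 is the one described at PCDHB14. Before the cluster the 3 earliest sites of the basal list were all shared. The earliest lay in an intron of ZMAT2, centred 1635 bp after its 5′ end and so outside the promoter window (15.2% down). The others lay in the non-coding region 20235 bp after the start of ZMAT2 (17.3%) and at HARS1 and HARS2 (17.6%). After the cluster 4 sites lay in introns of DIAPH1, all shared. The first of them (chr5:140904251-140904599), 11707 bp after the last cluster gene, stood at 8.94% and 18.7% of the lists, and it and the last (chr5:140943751-140944049, 17.7% and 22.1%) held the exact CTCF matches shown above. A shared site between PCDHB1 and PCDHB2 (chr5:140464101-140464299) stood at 37.6% and 49.8% and held no CTCF match.

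Related genes were counted in the same way. Of all coding genes 32.6% had a promoter site in both lists and 57.7% in neither. Of 12 protocadherins outside the cluster PCDH9, PCDH10 and PCDH18 had a promoter site in both lists, PCDH12 in the overexpression list only, and 8 had none. Of 20 genes that act on the cluster, such as CTCF, the cohesin subunits and loaders, REST and DNA methyltransferases, 12 had a promoter site in both lists, among them CTCF, RAD21, SMC1A, SMC3, WAPL and REST. STAG2, MAU2, RCOR1 and DNMT1 had one in the basal list only, NIPBL, SMCHD1 and DNMT3A in the overexpression list only, and DNMT3B in neither. Of 10 adrenocortical genes used to check the cell type, 4 carried one in both lists, STAR, CYP17A1, CYP21A2 and FDXR. CYP11A1 and MC2R carried one in the overexpression list only and NR5A1 in the basal list only, and HSD3B2, NR0B1 and SCARB1 carried none.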

How the data were processed

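FAIRE-seq sites of 2 libraries, basal and SF-1 overexpression, were used, 1 library per condition as grouped by the labels. Input DNA, sequenced for both conditions, was not used here. Per the file headers the authors deposited 1 browser track per library with chromosome, start, end, a running peak number and a score, and the deposited score was 1000 for every site. The submitters' processing notes name hg19 and CASAVA 1.8. The aligner, peak caller and threshold of the FAIRE libraries are not given in the sources used here, and depth is unknown. Starts lay on a grid of 50 bp. The median width was 399 bp in the first and 149 bp in the last 10% of either list, but what set the order is not stated. In each list 1 mitochondrial site was left out of whole-list shares.

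Sites were compared with GRCh37 and GENCODE release 44 lifted to it, 1-based, in Python 3.11.15 with NumPy 2.4.6 and SciPy 1.17.1. The motif search was tested on simulated sequence. Named genes were all cluster genes with a site within 500 bp of the 5′ end, the C-type genes and PCDHB1. The members, lists and motifs were chosen with earlier results of these data known, and the 9-letter words, the GC band and the motif places in β exons after their values were seen. Alternatives changed windows, overlap, list depth, site width and motif mismatches.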

Additional observations from a re-analysis of the deposited data

How the results depend on the processing

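No paired analysis was possible because each condition had 1 library, and for the same reason no library could be left out. Of 42 alternatives over 12 results, 27 left the value within its interval, or the count within 1.5 times, and 15 did not. Dropping sites narrower than the pooled median width of 249 bp left 4 promoters with a basal and 2 with an overexpression site, and 6 and 4 sites within 10 kb of the genes. Keeping the upper 50% of each list by peak number left 2 promoters with an overexpression site, and 9 basal and 5 overexpression sites within 10 kb. Counting to 100 kb beyond the cluster gave 26 and 22 sites. With exact CTCF matches only, 1 of the 6 within 10 kb was inside a site in each list (16.7%, 0.421 to 64.1%). The 6 leave out the exact match of the site 9860 bp before PCDHB1, which starts just over 10 kb from that gene. It is covered in both lists, so both shares would be higher with it. Of the exact matches in the genome 16.4% were inside a basal and 13.5% inside an overexpression site. Promoters with a CTCF match numbered 1 of 53 with exact matches (1.04% of all coding genes), 28 with 2 mismatches (71.3%), 1 from 250 bp before to 50 bp after the 5′ end (5.56%) and 10 within 1000 bp (21.1%). The ratio of site numbers ran from 0.667 to 0.846. These alternatives count fewer sites, another region or other letters. Without read counts, a site missed for want of depth and one lost cannot be told apart, and basal-only sites have no replicate check.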
